A study of Homo sapiens with 8 samples.

Results

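The mitochondrial ribosomal protein genes were taken by name from a gene expression table of xenograft tumours. The tumours were grown in mice from T24, an established line of human bladder carcinoma. A member is a protein-coding gene whose symbol starts with MRPL or MRPS followed by a digit and that had at least 10 counts in at least 4 of the 8 libraries. All 78 protein-coding genes with such names met the count minimum, out of 58302 genes in the table, and all 78 were among the 18973 genes tested. By symbol, 49 are MRPL and 29 are MRPS genes. By the place of the protein, 51 belong to the large subunit, 26 to the small subunit and 1 to neither, because the proteins of MRPS30 and MRPS18A sit in the large subunit and that of MRPS36 works in the oxoglutarate dehydrogenase complex. Grafted cells were T24 with enforced expression of DDR1, a receptor tyrosine kinase activated by collagen, or control T24, with 4 libraries in each group. The sources used here do not name the vector that carries DDR1, nor the strain, sex and age of the host mice.

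The mitochondrial ribosome translates the few proteins that mitochondrial DNA encodes, all of them core subunits of the respiratory chain and ATP synthase. Its ribosomal RNAs are made inside the organelle, whereas every one of its proteins is encoded in the nucleus, translated in the cytosol and imported. Many of its proteins have relatives in bacterial ribosomes and others are found only in mitochondria. Cancer cells, the urothelial kind included, depend on this ribosome for respiration to differing degrees.

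Libraries held between 13716286 and 32271031 counts, and the members took between 0.182% and 0.278% of them. The median member had between 286 and 999 counts per library, and the lowest value of any member in any library was 19.6. The level of DDR1 checks the labels. It was 138, 110, 210 and 149 CPM (counts scaled to library size) in control replicates 1 to 4 and 159, 343, 426 and 808 CPM in DDR1 replicates 1 to 4. DDR1 was higher in the DDR1 group by 1.52 on the log2 scale (SE 0.43), with an unadjusted edgeR p of 0.00612. The exact two-sided permutation p for the gene alone was 0.0571, where the smallest possible value is 0.0286. Over all genes its edgeR adjusted p was 0.9998. The library labelled DDR1 replicate 1 lay inside the control range. Every DDR1 title names one sequencing lane, and no control title names it, so lane and group cannot be told apart. The controls are split as well: the titles of replicates 1 and 2 name another lane, and those of replicates 3 and 4 name none. Of 10 markers of urothelial cells, UPK1A and UPK3A stayed under 1 CPM and the others were led by KRT5, at 706 to 4005 CPM. Summed markers of fibroblasts (3.81 to 62.6 CPM), endothelium (8.68 to 76.3 CPM) and leukocytes (13.6 to 46.9 CPM) lay below those of urothelial cells (2096 to 6564 CPM). By mean level they were led by COL1A1 (3.33 to 22.6 CPM), CDH5 (1.63 to 50.9 CPM) and CD68 (11.9 to 46.2 CPM). Summed markers of skeletal muscle or fat ran from 1.37 to 23.6 CPM in the controls and from 0.92 to 3.84 CPM in the DDR1 libraries. They were led by MYH2, at 0.03 to 21.6 CPM. All 4 red blood cell markers stayed under 1 CPM, and HBB was at 0 in every library. How mouse reads were handled is not stated in those sources.

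Promoters were searched for short motifs of known regulators of nuclear genes for mitochondrial proteins: NRF1, the ETS factor GABPA and YY1. Of 69 members with a promoter window, 50 held at least 1 of them: 30 held the ETS letters, 18 those of YY1 and 14 those of NRF1. RefSeq promoter windows on GRCh38.p14, from 250 bases before to 50 bases after a transcript start, were matched by symbol for 69 of the 78 members, with 85 windows in all. MRPL10, MRPL13, MRPL15, MRPL2, MRPL21, MRPL23, MRPL35, MRPS28 and MRPS36 had no entry. The 8 promoters below, from -150 to 30 relative to the start (the first transcribed base is 1, negative positions lie upstream), were shown because they held the most kinds of these motifs, then the most matches, among members whose promoters could be printed. Each is written 5′ to 3′ on the strand of its gene, and capitals mark every match to CCGGAAG (ETS), GCGCANGCG (NRF1) or AANATGGCG (YY1) on either strand.
MRPS18A: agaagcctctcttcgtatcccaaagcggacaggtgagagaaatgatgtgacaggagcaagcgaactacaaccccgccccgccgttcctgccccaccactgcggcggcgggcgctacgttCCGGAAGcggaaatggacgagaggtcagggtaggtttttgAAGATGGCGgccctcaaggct
MRPS10: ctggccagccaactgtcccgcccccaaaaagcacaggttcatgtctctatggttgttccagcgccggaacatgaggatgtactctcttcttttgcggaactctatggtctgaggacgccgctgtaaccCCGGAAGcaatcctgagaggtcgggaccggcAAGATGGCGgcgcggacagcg
MRPL52: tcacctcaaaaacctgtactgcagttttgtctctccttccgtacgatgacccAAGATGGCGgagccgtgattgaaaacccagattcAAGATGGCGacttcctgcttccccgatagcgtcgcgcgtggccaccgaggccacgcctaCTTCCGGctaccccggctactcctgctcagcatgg
MRPL36: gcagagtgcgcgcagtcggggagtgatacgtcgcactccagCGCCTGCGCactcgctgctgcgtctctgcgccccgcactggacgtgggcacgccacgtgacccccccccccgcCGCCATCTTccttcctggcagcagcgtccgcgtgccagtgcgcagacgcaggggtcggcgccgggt
MRPS9: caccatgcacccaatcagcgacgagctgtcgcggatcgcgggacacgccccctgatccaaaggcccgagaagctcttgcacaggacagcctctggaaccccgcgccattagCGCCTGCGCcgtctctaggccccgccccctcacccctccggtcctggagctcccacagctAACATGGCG
MRPL30: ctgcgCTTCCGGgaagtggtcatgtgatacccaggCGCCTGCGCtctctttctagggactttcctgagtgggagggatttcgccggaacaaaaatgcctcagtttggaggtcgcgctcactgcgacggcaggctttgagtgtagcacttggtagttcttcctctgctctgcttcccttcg
MRPS34: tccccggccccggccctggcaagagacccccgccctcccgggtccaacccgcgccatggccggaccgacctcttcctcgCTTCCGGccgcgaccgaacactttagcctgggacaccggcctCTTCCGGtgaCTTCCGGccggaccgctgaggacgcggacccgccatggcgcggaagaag
MRPL17: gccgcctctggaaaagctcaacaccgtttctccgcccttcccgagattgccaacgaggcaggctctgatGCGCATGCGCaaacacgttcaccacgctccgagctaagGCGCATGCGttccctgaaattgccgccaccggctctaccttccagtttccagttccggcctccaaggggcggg

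In MRPS18A (chr6:43687762-43687941, minus strand) and MRPS10 (chr6:42217832-42218011, minus strand), an ETS match at -31 and -22 was followed by a YY1 match that began at 10 in both. MRPL52 (chr14:22829737-22829916, plus strand) held YY1 matches from -98 and -64 and an ETS match from -5. NRF1 and YY1 matches stood together in MRPL36 (chr5:1799808-1799987, minus strand) and MRPS9 (chr2:105037919-105038098, plus strand), and NRF1 with ETS in MRPL30 (chr2:99181034-99181213, plus strand). The promoter of MRPS34 (chr16:1773105-1773284, minus strand), second in level per kilobase of merged exons though not with the longest transcript as the length, held 3 ETS matches, from -71, -29 and -19. That of MRPL17 (chr11:6683311-6683490, minus strand) held 3 NRF1 matches, of which those from -81 and -80 overlap on opposite strands.

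Over whole windows of 300 bases, the ETS letters were present in 38.8% of member windows against 16.1% of the 15778 windows of all protein-coding genes tested. For YY1 the shares were 21.2% and 5.63%, and for NRF1 17.6% and 11.9%. At least 1 of these 3 motifs stood in 63.5% of member windows and in 29.1% of all windows. The SP1 letters GGGCGG, which can share letters with an ETS match, stood in 51 of 85 member windows and in 64.0% of all windows, and the TATA letters TATAAA in 3.53% and 6.76%, both searched on either strand. A match describes the letters of the promoter and is not a measured binding site. The 30 members with an ETS match had a median level of 10.03 CPM per kilobase and the 39 without one 10.14. The mean correlation between members over the 8 libraries was 0.24 among those with an ETS match and 0.21 among those without. It was 0.18 and 0.25 for YY1, and 0.20 and 0.22 for NRF1. For YY1 the median levels were 8.87 with a match (18 members) and 10.2 without (51 members). The factors themselves were present in every library, GABPA at 36.9 to 49.2 CPM, NRF1 at 14.5 to 22.6 CPM and YY1 at 91.5 to 151 CPM.

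Levels between genes are compared as CPM per kilobase of merged exons, averaged over the 8 libraries. The median member stood at 9.55 CPM per kilobase, above 72.8% of the protein-coding genes tested, whose median was 4.61. The 82 nuclear subunits of the respiratory chain had a median of 14.7, and the 81 cytosolic ribosomal proteins 109. Large-subunit genes (median 10.2) and small-subunit genes (9.09) lay close together, and 66 of the 78 members fell between 5 and 30 CPM per kilobase. The level of the first member was 18.5-fold that of the second last.

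**Figure D1:**
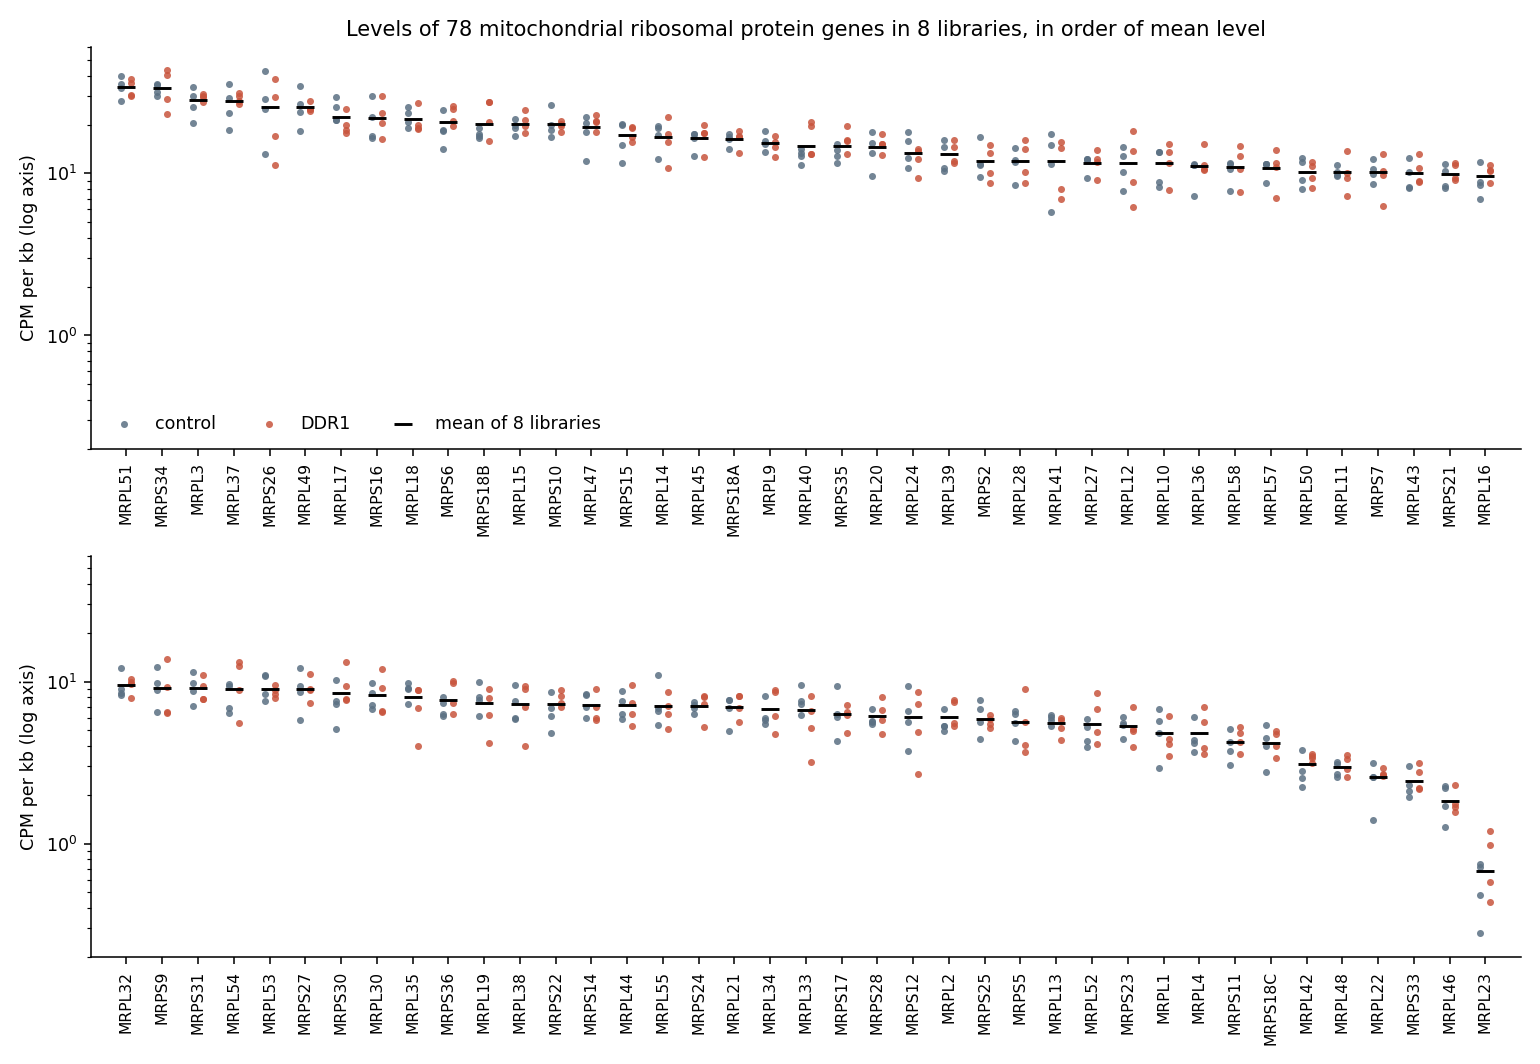
Level of each of the 78 members in each library, in CPM per kilobase of merged exons on a log axis, with control and DDR1 libraries as points and the mean of 8 libraries as a bar. Most members lie between 5 and 30, and MRPL23 stands apart at 0.68 on this scale.

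MRPL51, a large-subunit protein found only in mitochondria, had the highest level per kilobase of merged exons, 34.0 ± 4.27 CPM per kilobase (SD, n = 8). MRPS34, a mitochondria-specific protein of the small subunit, followed at 33.6 ± 6.54, MRPL3, of the universal L3 family, at 28.5 ± 4.001, MRPL37 at 27.8 ± 5.09 and MRPS26 at 25.8 ± 11.5. At the other end stood MRPS33 at 2.45 ± 0.45, MRPL46, a protein of the central protuberance, at 1.84 ± 0.37, and MRPL23, which lies by the exit tunnel, at 0.68 ± 0.30. Neighbours in this order were mostly not resolved: of 77 pairs of neighbours, 4 differed by more than 1 SD, and MRPL51 and MRPS34 did not. With the longest transcript as the length in place of merged exons, the order had a Spearman correlation of 0.89 with that given here and both ends changed. MRPL3 (45.4) and MRPL37 (44.9) then stood above MRPL51 (42.8) and MRPS34 (35.5), and MRPL46 (2.13) stood just below MRPL23 (2.19). MRPL23 is uncertain because its gene model overlaps that of an antisense transcript, MRPL23-AS1 (1.602 CPM), and the protocol does not mention strand marking. The same uncertainty applies to other members that overlap a gene on the opposite strand. Among them are MRPL51 (NCAPD2, 131 CPM), MRPS18B (PPP1R10, 104 CPM) and MRPL40 (HIRA, 36.3 CPM).

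The spread between libraries was set beside that of other genes. The members' median coefficient of variation over the 8 libraries was 19.3%, against 23.6% for 10168 protein-coding genes at levels within the range of the members. MRPS18A (10.5%), MRPL13 (11%) and MRPL48 (11.8%) were steadiest, and MRPS26 (44.6%), MRPL23 (44.2%) and MRPS12 (37.9%) varied most. MRPS18A, a large-subunit protein, stood at 21.4, 18.1, 22.6 and 20.8 CPM in the controls and at 23.6, 21.5, 17.1 and 21.8 CPM in the DDR1 libraries. MRPS26, by contrast, stood at 32.4, 14.9, 48.6 and 28.1 CPM in the controls and at 43.3, 19.2, 12.7 and 33.6 CPM in the DDR1 libraries. Its lowest libraries were control replicate 2 and DDR1 replicates 2 and 3, so its wide range was shared by both groups.

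The comparison of enforced DDR1 with control asks what the receptor changes in these tumours. No member differed between the groups past the threshold, and every one had an edgeR adjusted p of 0.9998. Of 78 members, 0 had an edgeR adjusted p under 0.05, as for all genes tested (0.0% called), and 0 had an unadjusted p under 0.05, where 4.17% of all genes had one. With DESeq2, which called 16 of the 18973 genes and gave 4.84% of them an unadjusted p under 0.05, both counts were 0 for the members. For 0 members did the groups not overlap, against 2.4% of all genes tested. The median log2 fold change of the members was 0.04, beside -0.003 for all genes tested, with 46 members above 0 and 32 below. It was 0.06 for the large subunit and 0.02 for the small subunit. In tumours, less RNA per cell and fewer cells of a kind cannot be told apart. Separate animals are not stated in the labels, so p-values cover only library-to-library spread, part of which may be technical.

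The intervals show how much the data can say. The median standard error of a member was 0.21 on the log2 scale, and for 74 of 78 members the 95% confidence interval lay inside a 2-fold change in either direction. The exceptions were MRPL23, MRPL33, MRPS26 and MRPL41, the last named after its values were seen. Over all genes tested, 11402 of 18973 had intervals as narrow. Fold changes ran from -0.41 for MRPL33 to 0.51 for MRPL23 on the log2 scale. Both leaned on single libraries: without DDR1 replicate 4 they were -0.20 and 0.27, and MRPL23 was at 0.29 without control replicate 2.

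**Figure D2:**
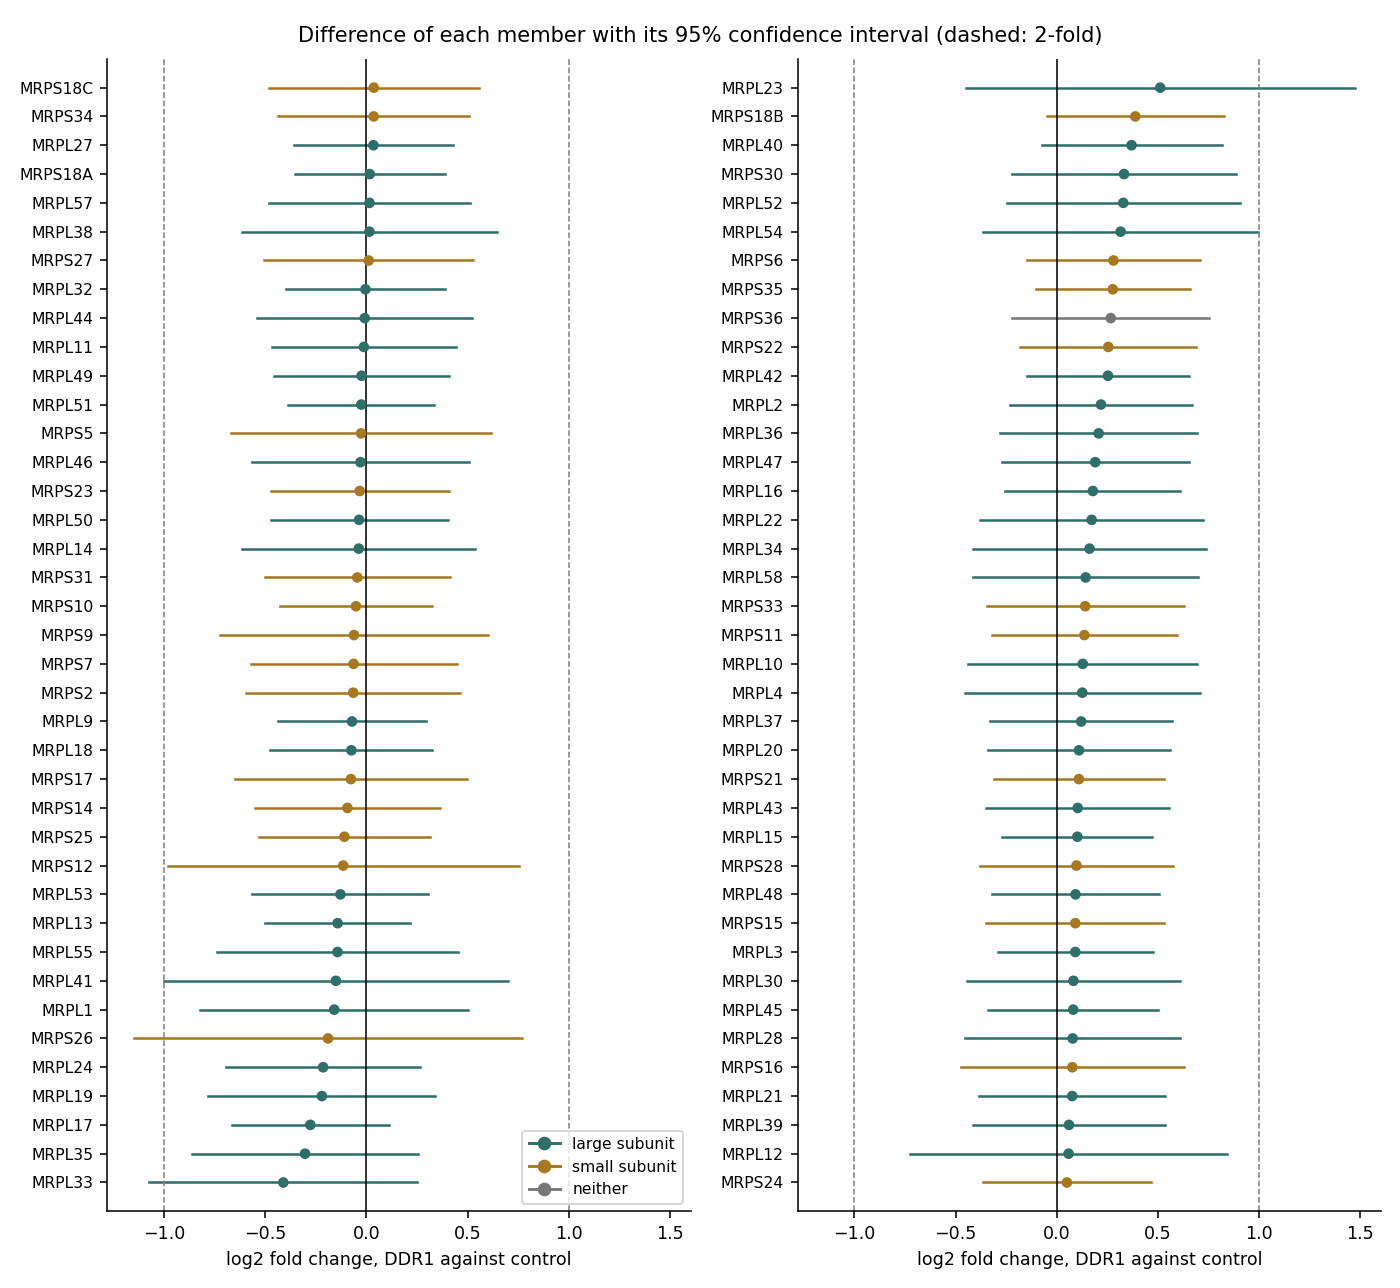
Log2 fold change of each of the 78 members, DDR1 against control, with its 95% confidence interval, ordered by size and coloured by subunit. Every interval covers 0, and dashed lines mark a 2-fold difference.

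Among members with a higher mean in the DDR1 group, the smallest p-values belonged to MRPS18B, MRPL40, MRPS35, MRPS6 and MRPL42. MRPS18B (ENSG00000204568, GRCh38 chromosome 6, 30617709 to 30626395, plus strand) is one of 3 paralogs related to bacterial S18 and lies in the small subunit. It stood at 33.2, 32.3, 35.8 and 31.4 CPM in control replicates 1 to 4 and at 52.5, 39.1, 30.1 and 52.0 CPM in DDR1 replicates 1 to 4. DDR1 replicate 3 lay below every control and the other DDR1 libraries above them, so the groups overlapped through 1 library. The log2 fold change was 0.39 (SE 0.19, 95% interval -0.05 to 0.82), and 0.53 without DDR1 replicate 3 (edgeR adjusted p = 0.864). Of its paralogs, MRPS18A is described above, and MRPS18C, on chromosome 4, had means of 20.2 ± 5.36 CPM (control) and 20.8 ± 3.58 CPM (DDR1; SD, n = 4 each).

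MRPL40 (ENSG00000185608, chromosome 22, 19431902 to 19436075, plus strand), a protein of the central protuberance, was at 27.6, 26.4, 25.3 and 22.1 CPM in the controls. In DDR1 replicates 1 to 4 it was at 41.1, 25.7, 25.9 and 38.4 CPM. Its DDR1 libraries fell into a pair far above the controls, replicates 1 and 4, and a pair within the control range. The other 240 protein-coding genes of chromosome 22 were also highest in those libraries, at mean deviations of 0.35 and 0.44 on the log2 scale. The log2 fold change was 0.37 (SE 0.20). Leaving out the library labelled DDR1 replicate 1 gave 0.24. Subtracting the genes around MRPL40, as described for neighbours further on, gave 0.21 by limma-trend, beside 0.33 by limma-voom without subtraction. MRPS35, a mitochondria-specific protein of the small-subunit head, had means of 26.5 ± 3.01 CPM for control and 32.1 ± 5.24 CPM for DDR1 (SD, n = 4 each, log2 fold change 0.28, SE 0.17; 0.17 without the library labelled DDR1 replicate 1). MRPS6, related to bacterial S6, had 81.2 ± 18.3 and 98.6 ± 13.6 CPM (log2 fold change 0.28, SE 0.19), and the fold change was 0.44 without control replicate 1 and 0.17 without control replicate 3. Its gene model overlaps that of SLC5A3, a transporter gene on the same strand with 641 CPM, so the split of reads between them is uncertain. MRPL42 stood at 41.6, 62.2, 46.0 and 36.6 CPM in the controls and at 58.3, 56.9, 55.3 and 51.6 CPM in the DDR1 libraries. For that gene 3 of 4 controls lay below all DDR1 libraries and control replicate 2 above them, with a log2 fold change of 0.25 (SE 0.18). Without control replicate 2 it was 0.43, and without control replicate 4 it was 0.16.

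With lower means in the DDR1 group, MRPL17, MRPL33, MRPL35, MRPL24 and MRPL13 had the smallest p-values. MRPL17 (ENSG00000158042, chromosome 11, 6680782 to 6683401, minus strand), related to bacterial L17, was at 58.8, 48.9, 48.5 and 67.4 CPM in the controls and at 56.6, 45.4, 42.2 and 40.3 CPM in the DDR1 libraries. DDR1 replicates 2, 3 and 4 lay below every control, and the library labelled DDR1 replicate 1 lay among them. The log2 fold change was -0.28 (SE 0.17), and -0.17 without control replicate 4. MRPL33 (ENSG00000243147, chromosome 2, 27771717 to 27988087, plus strand), related to bacterial L33, was at 11.7, 9.63, 14.8 and 11.2 CPM in the controls and at 10.2, 12.5, 7.995 and 4.89 CPM in the DDR1 libraries. MRPL35, on the same chromosome and related to bacterial L35, was at 34.5, 34.9, 37.8 and 28.0 CPM in the controls and at 33.9, 34.0, 26.3 and 15.4 CPM in the DDR1 libraries. In both genes DDR1 replicate 4 was the lowest library, and without it the log2 fold change of MRPL35 was -0.10 in place of -0.30. The gene model of MRPL33 overlaps BABAM2 on the same strand (28.4 CPM), so its value is uncertain.

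**Figure D3:**
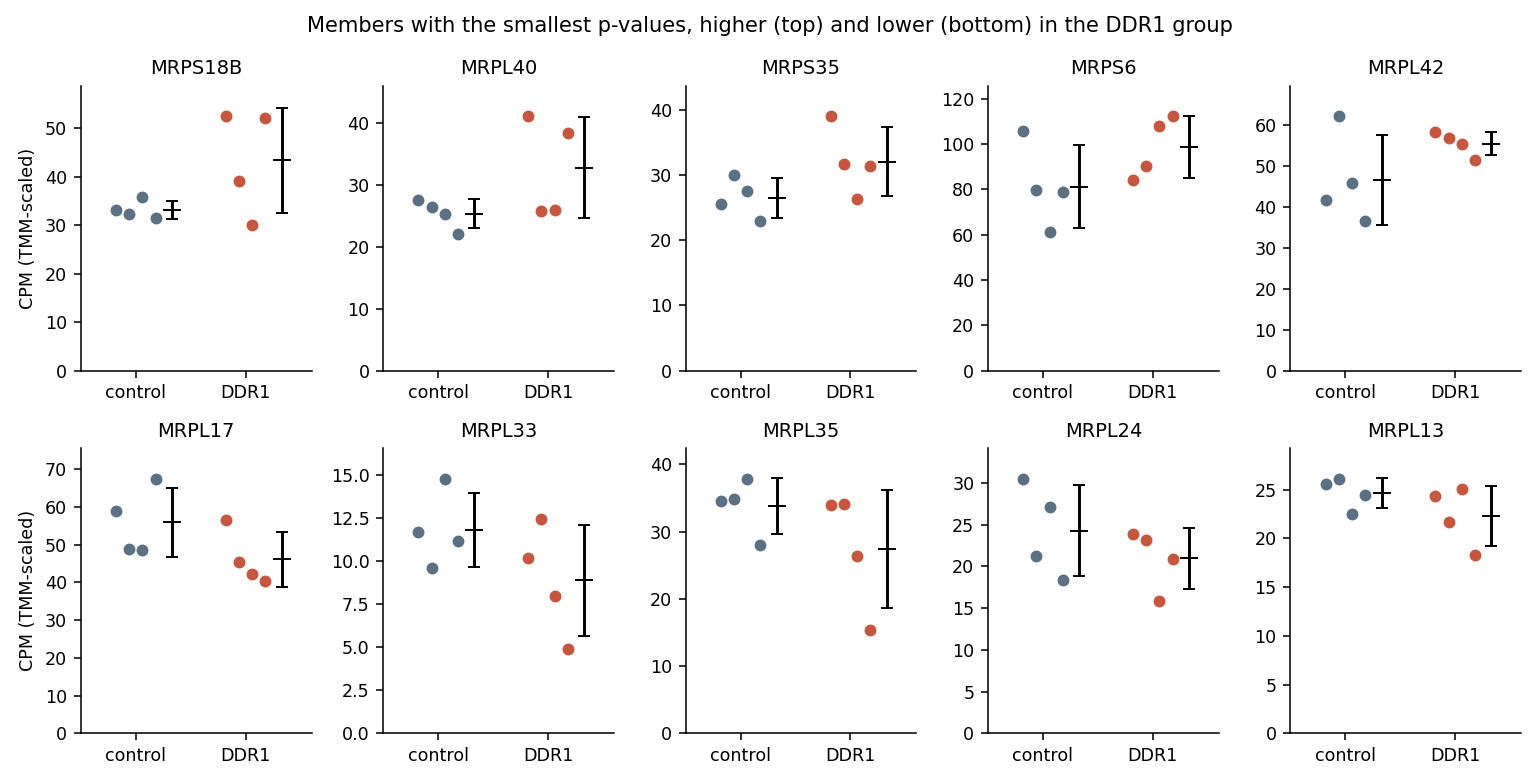
CPM of the 5 members with the smallest p-values in each direction, 1 point per library in replicate order, with the mean and SD of 4 libraries in black. In every panel the control and DDR1 points overlap.

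MRPL24, of the L24 family at the tunnel exit, had means of 24.3 ± 5.48 CPM for control and 20.9 ± 3.68 CPM for DDR1 (log2 fold change -0.21, SE 0.21). Leaving out control replicate 1 brought the fold change of MRPL24 to -0.07, and leaving out DDR1 replicate 3 to -0.10. MRPL13, one of the steadiest members, had 24.7 ± 1.58 and 22.3 ± 3.08 CPM (log2 fold change -0.14, SE 0.16, 95% interval -0.50 to 0.21). The interval of MRPL13 was narrow and covered 0, and without DDR1 replicate 4 its fold change was -0.05. With a far wider interval, MRPL23 had 1.66 ± 0.65 and 2.37 ± 1.04 CPM (log2 fold change 0.51, SE 0.43, 95% interval -0.45 to 1.47).

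Further members were chosen for their role. MRPL12 is the stalk protein that draws translation factors to the ribosome, and MRPL10 anchors it. MRPL12 was at 13.2, 7.96, 14.9 and 10.5 CPM in the controls and at 14.1, 9.12, 6.34 and 18.9 CPM in the DDR1 libraries, and DDR1 replicates 3 and 4 held its lowest and its highest value. MRPL10 had means of 30.4 ± 8.02 and 33.3 ± 8.64 CPM. MRPL45, which ties the ribosome to the inner membrane, had 27.5 ± 3.76 and 29.1 ± 5.32 CPM. MRPL44, a protein with a ribonuclease III fold, had 12.5 ± 2.29 and 12.4 ± 3.17 CPM. MRPL58, a peptidyl-tRNA hydrolase that frees stalled ribosomes, had 11.5 ± 1.98 and 12.7 ± 3.39 CPM. All of these groups overlapped and their means differed by less than the spread between libraries.

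In the small subunit, MRPS12, the protein of the decoding centre, was at 12.2, 7.96, 20.0 and 14.2 CPM in the controls and at 18.4, 10.5, 5.73 and 15.6 CPM in the DDR1 libraries. Its range of values within each group was wider than the distance between the group means, 13.6 and 12.5 CPM. MRPS30, placed in the large subunit despite its name, was at 45.0, 63.6, 31.8 and 47.3 CPM in the controls and at 47.9, 58.3, 81.4 and 48.6 CPM in the DDR1 libraries. MRPS36, the member outside the ribosome, had 10.7 ± 1.36 and 12.8 ± 2.83 CPM, and its groups overlapped as well.

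The mitochondrial ribosome has further proteins under other symbols, and 5 of them were measured: DAP3, a GTP-binding protein, PTCD3, which takes part in messenger binding, CHCHD1, AURKAIP1 and GADD45GIP1. Of these, 0 had an unadjusted p under 0.05, with 1 above 0 and 4 below and a median log2 fold change of -0.11. DAP3 had means of 55.7 ± 10.2 CPM for control and 50.1 ± 4.10 CPM for DDR1, and PTCD3 at 68.5 ± 18.6 and 58.8 ± 18.3 CPM. GADD45GIP1 was the one above 0, at 30.1 ± 1.498 and 33.1 ± 8.13 CPM.

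Factors that build and serve the ribosome were described by the same counts. Of 26 assembly factors, 5 were above 0 and 21 below, with 0 at an unadjusted p under 0.05 and a median log2 fold change of -0.03. The smallest p among them was that of YBEY, an RNA-processing endonuclease, at 2.94 ± 1.51 and 4.44 ± 1.20 CPM. Of 16 translation factors, 11 were above 0 and 0 had an unadjusted p under 0.05 (median 0.08). For GUF1, a relative of elongation factor 4, the groups did not overlap: it was at 32.7, 35.3, 32.3 and 28.9 CPM in the controls and at 28.4, 27.8, 24.6 and 22.6 CPM in the DDR1 libraries. Its log2 fold change of -0.32 (SE 0.15) did not pass (edgeR adjusted p = 0.9998). Of 17 mitochondrial aminoacyl-tRNA synthetases, which charge transfer RNAs, 13 were below 0 (median -0.14). LARS2, the leucine enzyme, had the smallest p of these 17, and 0 of them had an unadjusted p under 0.05. Its means were 29.4 ± 5.85 and 22.3 ± 2.91 CPM (log2 fold change -0.40, SE 0.19).

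RNAs made in mitochondria were measured too. The 13 proteins encoded there had a median log2 fold change of 0.21, with 12 above 0 and 0 at an unadjusted p under 0.05. MT-CO3, a subunit of cytochrome oxidase, had the smallest p of these 13. Its means were 2396 ± 838 CPM for control and 3621 ± 607 CPM for DDR1 (log2 fold change 0.60, SE 0.28). MT-RNR1, the gene of the small-subunit ribosomal RNA, ran from 95.1 to 320 CPM in the controls and from 131 to 2797 CPM in the DDR1 libraries, with its highest value in DDR1 replicate 4. It gave a log2 fold change of 2.05 (SE 0.88, edgeR adjusted p = 0.9998). Libraries were made by poly-T selection, and its part in the level of ribosomal RNA was not tested. Among 11 regulators of mitochondrial genes, YY1 had the smallest p (114 ± 17.3 and 139 ± 12.8 CPM). MTPAP, the mitochondrial poly(A) polymerase, had the smallest p among 11 genes of mitochondrial DNA and transcription. Its means were 14.9 ± 3.16 and 19.3 ± 3.62 CPM (log2 fold change 0.38, SE 0.22). Of 9 stress genes, ATF4 had the smallest p, with means of 235 ± 17.9 and 279.9 ± 92.9 CPM (log2 fold change 0.25, SE 0.23). Neither list held a gene with an unadjusted p under 0.05.

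The course of the members over the libraries was taken next. Each member was taken as the deviation of its log2 CPM from its own mean over the 8 libraries, and these deviations were averaged. The average was 0.06, -0.01, -0.003 and -0.14 in control replicates 1 to 4, and 0.25, 0.03, -0.24 and 0.05 in DDR1 replicates 1 to 4. The highest and the lowest library were thus both of the DDR1 group. In the library labelled DDR1 replicate 1, 66 of 78 members stood above their mean and 28 had their highest value. In DDR1 replicate 3, 64 stood below it and 30 had their lowest value. The share of protein-coding genes above their mean was 53.4% and 46.3% in these libraries. The members' median log2 fold change was -0.04 when the library labelled DDR1 replicate 1 was left out, and 0.14 without DDR1 replicate 3.

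Other gene groups were summarised in the same way. The nuclear subunits of the respiratory chain took a like course, at 0.27 and -0.22 in DDR1 replicates 1 and 3. In the same libraries assembly factors were at 0.21 and -0.28, translation factors at 0.24 and -0.17, and aminoacyl-tRNA synthetases at 0.26 and -0.36. Genes of mitochondrial DNA and transcription were at 0.17 and -0.23, and stress genes at 0.23 and -0.28. The cytosolic ribosomal proteins were at 0.35 in DDR1 replicate 1, -0.06 in DDR1 replicate 3 and 0.35 in DDR1 replicate 4, and below 0 in all 4 controls. Of their 81 genes, 79 had a log2 fold change above 0 (median 0.36), 17 an unadjusted p under 0.05 and 0 an adjusted one, and for 12 the groups did not overlap. Over all genes tested, 49.5% were above 0, 4.17% had an unadjusted p under 0.05 and 2.4% had groups that did not overlap. The difference between the cytosolic and the mitochondrial list was not tested. The 13 proteins encoded in mitochondria took another course, at -0.31 in DDR1 replicate 1 and 0.63 in DDR1 replicate 3. Their sign was that of the members in control replicates 3 and 4 and DDR1 replicate 4, and differed in the other libraries.

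**Figure D4:**
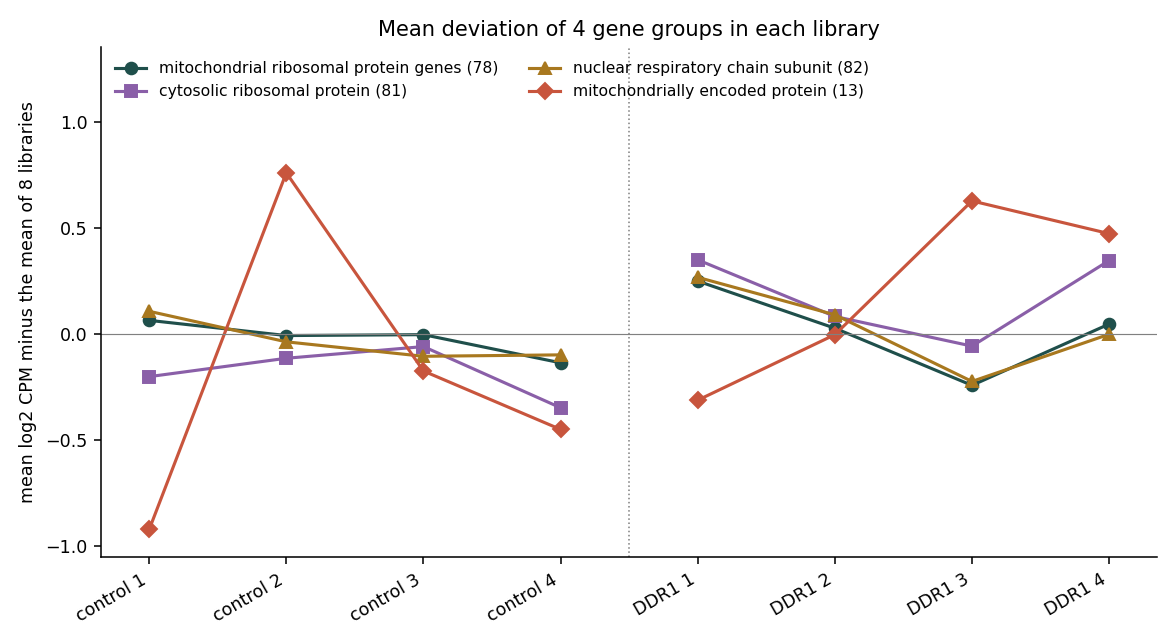
Mean deviation of log2 CPM from the mean of 8 libraries for the members and 3 other gene groups, in each library. Lines only join the points of a group. Members are highest in DDR1 replicate 1 (0.25) and lowest in DDR1 replicate 3 (-0.24), and their control libraries lie between -0.14 and 0.06.

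Members were also compared by the chromosome on which they lie. The pattern by chromosome was chosen after the values were seen and is given as a description. Over the 8 libraries, which share depth and composition, the mean Pearson correlation of log2 CPM was 0.49 for the 163 pairs of members on one chromosome and 0.20 for the 2840 pairs on different ones. With the group means removed these were 0.51 and 0.21. By subunit, the mean was 0.19 within the large subunit, 0.25 within the small and 0.23 between them.

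On chromosome 17 the 8 members (MRPL10, MRPL12, MRPL27, MRPL38, MRPL45, MRPL58, MRPS23 and MRPS7) had a mean correlation of 0.80, and all 8 were lowest in DDR1 replicate 3. The other 609 protein-coding genes of that chromosome had a mean deviation of -0.31 in the same library, and the members -0.55. On chromosome 5 all 5 members (MRPL22, MRPL36, MRPS27, MRPS30 and MRPS36) were lowest in control replicate 3. They averaged -0.60 there, beside -0.57 for the other 456 genes of the chromosome. Chromosome 2 holds MRPL33 and MRPL35, described above, with 6 other members. Its 8 members averaged -0.50 in DDR1 replicate 4 and 0.34 in control replicate 3, and the other 638 genes -0.45 and 0.40. On chromosome 19 the 4 members averaged -0.64 in DDR1 replicate 3, where the other genes averaged -0.11. On the other chromosomes the mean correlation of members differed widely. It was 0.22 for the 7 members of chromosome 11, 0.21 for the 4 of chromosome 7, 0.11 for the 3 of chromosome 12 and 0.16 for the 2 of chromosome 21. For the 2 members each of chromosomes 16, 4, 15, 10 and 13 it was 0.87, 0.86, 0.83, 0.82 and 0.69. The members' mean correlated with that of the chromosome's other genes at 0.96 on chromosome 17, but at 0.03 on chromosome 12, 0.08 on chromosome 8 and -0.46 on chromosome 21.

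**Figure D5:**
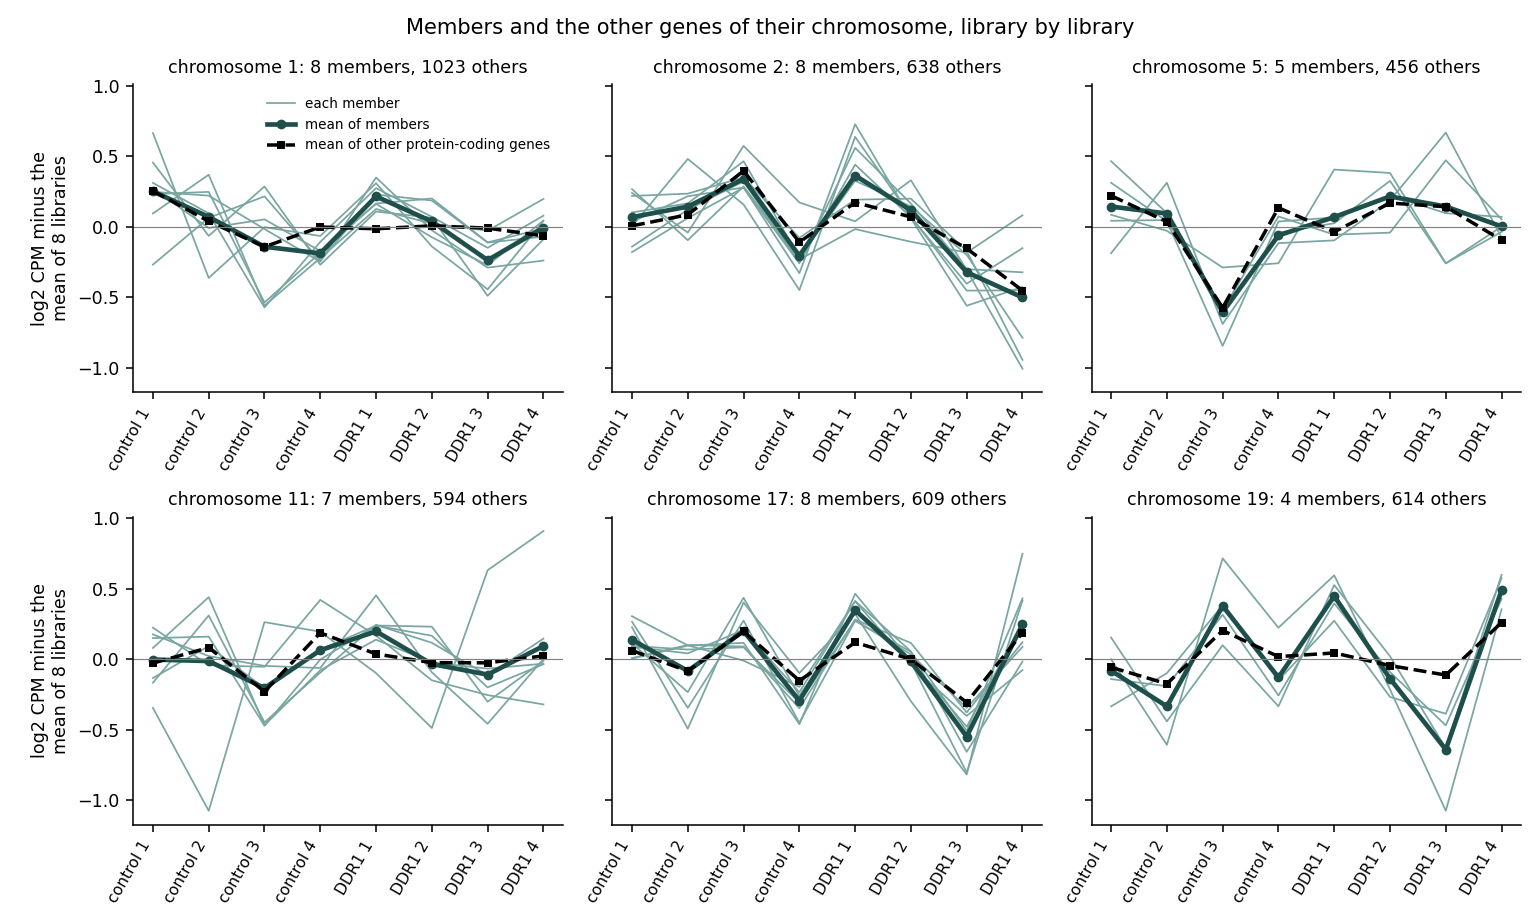
Deviation of log2 CPM from the mean of 8 libraries for the members of 6 chromosomes (thin lines), their mean (thick line) and the mean of the other protein-coding genes of the chromosome (dashed). Lines only join the points of a gene or group. On chromosomes 2 and 5 both means fall together, to -0.50 and -0.45 in DDR1 replicate 4 and to -0.60 and -0.57 in control replicate 3.

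Each member was next set beside its neighbours, the median of the other protein-coding genes whose start lies within 5 Mb. Its correlation with them over the 8 libraries had a median of 0.73 over the 78 members, and it was above 0.5 for 73.1% of them. For 10018 other protein-coding genes the median was 0.57 and the share 56.7%. MRPL12 (0.97) and MRPL27 (0.96) on chromosome 17 and MRPL33 (0.93) on chromosome 2 followed their neighbours closely. For 7 members the correlation was negative: MRPL32 (-0.65), MRPS28 (-0.60), MRPS6 (-0.41), MRPS21 (-0.32), MRPS10 (-0.23), MRPL15 (-0.11) and MRPL18 (-0.02). After the neighbours were subtracted, pairs on one chromosome correlated at 0.34 and pairs on different ones at 0.32. By limma-trend, the log2 fold change of MRPL33 was then -0.17 and that of MRPL35 -0.07. The value of MRPS18B was then 0.39 (limma-trend adjusted p = 0.999). Without subtraction, limma-voom gave -0.44 for MRPL33, -0.35 for MRPL35 and 0.35 for MRPS18B, where the values described above are from edgeR. DNA copy number was not measured, and its part in these values was not tested.

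Base composition moved with the libraries too. Across the 78 members, which are not independent replicates, the deviation correlated with GC content at -0.66 in control replicate 2, -0.69 in DDR1 replicate 2 and 0.61 in DDR1 replicate 4. In all protein-coding genes the corresponding values were -0.36, -0.14 and 0.34. With the GC trend removed in each library, the median correlation of members with their neighbours was 0.69, and the pair means were 0.50 on one chromosome and 0.24 on different ones. MRPS26 (63.4% GC), the member that varied most, was lowest in control replicate 2 and DDR1 replicates 2 and 3. In these 3 libraries the GC-rich 39 members averaged below the GC-poor 39. The part of GC content in the value of any 1 member was not tested.

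The members with the highest mean correlation to the rest were MRPL57 (0.44), MRPL27 (0.44) and MRPS7 (0.44), the last of the S7 family in the small-subunit head. MRPL23 (-0.20), MRPL36 (-0.19) and MRPS30 (-0.17) ran against the others. MRPL36, a small protein related to bacterial L36, was at 15.7, 15.8, 10.1 and 16.0 CPM in the controls and at 14.7, 14.8, 21.2 and 15.8 CPM in the DDR1 libraries. It was highest in DDR1 replicate 3, where 30 members were lowest, as was MRPS30 at 81.4 CPM. Both genes lie on chromosome 5, whose other genes stood at 0.14 in that library. Their neighbours within 5 Mb stood higher there, at 0.36 for MRPL36 and 0.59 for MRPS30.

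Members often sit head to head with another gene. A protein-coding neighbour on the opposite strand, with its start at most 1000 bases upstream, was present for 17 of 78 members (21.8%), against 9.29% of the protein-coding genes tested. The median correlation between partners over the 8 libraries was 0.74 for the members and 0.52 for all such pairs. MRPL18 starts 63 bases from TCP1, a chaperonin subunit gene, and the pair correlated at 0.87. MRPL47 starts 36 bases from NDUFB5, a subunit of respiratory complex I (0.81), and MRPL50 starts 259 bases from ZNF189 (0.65). MRPL36, with its gene start at 1801366, starts 34 bases from NDUFS6, another complex I gene (0.76). Its promoter printed above, chr5:1799808-1799987, belongs to a different transcript start and is not the stretch between these genes. MRPS11 and MRPL46, from the small and the large subunit, are each other's partner, 34 bases apart, and correlated at 0.83. Such partners also share a region of the chromosome, and these kinds of sharing cannot be told apart here.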

How the data were processed

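Poly-T selected RNA of 8 xenograft tumour libraries was sequenced in paired ends, per the labels' protocols. Names listed in the submitters' processing notes are RSEM 1.3.1, STAR 2.7.5, Trim Galore 0.6.4, FastQC 0.11.9 and GRCh38; annotation release, settings and any removal of mouse reads are not stated there. The authors deposited expected counts per gene, rounded here to whole numbers before count tests. The authors also deposited TMM-normalized log2 values, used as an alternative.

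Of 58302 identifiers, 58039 matched GENCODE 29. Genes were kept by filterByExpr (minimum count 10), scaled by TMM and compared between groups with edgeR 4.0.16 (quasi-likelihood, R 4.3.3), fitting 8 libraries without covariates. Benjamini-Hochberg adjusted p-values over all 18973 genes were called under 0.05. CPM values are TMM-scaled; the prior count of log2 CPM was 2. The steps were tested on simulated data. Alternatives used limma 3.58.1, DESeq2 1.42.0, other scalings, filters, and subsets of libraries; those on neighbours were added after seeing the data.

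Replicate numbers follow accession order. DDR1 replicates 2 to 4 share a title prefix, as do control replicates 3 and 4. The members and lists were chosen with earlier results of these data known. Members were named by rule. By level, these were the 5 highest and 3 lowest per kilobase. By the contrast, they were the 5 smallest p-values in each direction and any whose groups did not overlap. The 3 highest and 3 lowest coefficients of variation, and mean correlations with other members, were named too. So were the 3 with the most pseudogene counts relative to their own, and the 3 with the most expressed head-to-head neighbour. A further 11 were chosen for their role, and other members named were chosen after their values were seen. From each role list the gene with the smallest p was named.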

Additional observations from a re-analysis of the deposited data

Results flagged for a closer look

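In each group of 4 libraries, the highest and lowest values of the members named by rule, of DDR1 and of the mean deviation of the members were compared with the rest, 80 groups in all. In 4 of them a single library stood far from the other 3, and chance alone marks about 1 group in 20. MRPL27, of the L27 family near the peptidyl transferase centre, was at 28.2 CPM in control replicate 4, where the other controls lay between 36.6 and 37.3 CPM. MRPL57 was at 19.7 CPM in the same library, with the other controls between 25.6 and 25.9 CPM. That library had the lowest total count and the lowest mean of the members among the controls. MRPL36 was at 10.1 CPM in control replicate 3, with the other controls between 15.7 and 16.0 CPM, and it lies on chromosome 5, whose genes were low in that library. MRPL18 was at 37.3 CPM in the library labelled DDR1 replicate 1, with the other DDR1 libraries between 25.7 and 27.2 CPM. The part of the library or the chromosome in these values was not tested.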

How the results depend on the processing

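Members called stayed at 0 under all 23 alternatives. The lane 7 controls are control replicates 1 and 2, and the titles of the other controls name no lane. Members with an unadjusted p under 0.05, 0 in the fit reported, numbered 4 without the lane 7 controls (MRPL37, MRPS22, MRPL42 and MRPS6, all higher in the DDR1 group; 5.61% of all genes tested in that fit), and 1 with neighbours subtracted (MRPS18B; 4.10% of the genes in that fit), an alternative chosen after seeing the data. Leaving out single libraries gave 0 to 2: MRPS6 without control replicate 1 (2.92% of all genes), MRPS22 and MRPL42 without control replicate 2 (6.26%), and MRPL40 and MRPS18B without DDR1 replicate 3 (5.74%). The median log2 fold change of the members ran from -0.04 (without the library labelled DDR1 replicate 1) to 0.14 (without DDR1 replicate 3). It was 0.13 without the lane 7 controls, 0.006 without the controls that name no lane and 0.12 with shared title prefixes summed. In these fits 56, 40 and 58 of 78 members were above 0. Without the controls that name no lane, 0 members had an unadjusted p under 0.05, and likewise with prefixes summed. In every alternative, 21 of 78 members kept their sign. DDR1 was higher by 1.31 on the log2 scale without the lane 7 controls, where its unadjusted p was no longer under 0.05; the cause was not tested. The correlation of members with their neighbours had medians from 0.68 to 0.78 with single libraries left out. The median level was 13.1 per kilobase with the longest transcript as the length and 16.4 as TPM. No paired analysis was possible because replicate numbers follow accession order and pair no libraries.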

Other observations

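Pseudogenes carry copies of some members, and reads can be split between them. Of 34 members 75 pseudogenes were listed, of which 28 had no counts in any library. For 7 members the pseudogenes reached 1% of the parent's counts. MRPS31, a mitochondria-specific protein of the small-subunit head, had 62.8% as many counts in its 4 pseudogenes as in itself, led by MRPS31P5, with 51.9% in control replicate 2 and 86.3% in DDR1 replicate 4. MRPL45 had 20.0% in 2 pseudogenes, led by MRPL45P2, and MRPL53 had 3.65%. The values of MRPS31 and MRPL45 are uncertain to that extent. Gene models of 36 members overlap that of a further gene among those tested, for 10 members on their own strand and for 29 on the opposite strand.

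MRPS18B lies 250 kb from DDR1 on chromosome 6, an observation made after its values were seen. In DDR1 replicates 1 to 4, MRPS18B was at 52.5, 39.1, 30.1 and 52.0 CPM, and DDR1 at 159, 343, 426 and 808 CPM. DDR1 expression was enforced, and its counts were not split between the added gene and the one on chromosome 6. A link between MRPS18B and DDR1 was not tested.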
